A study of Mus musculus with 10 samples.

Results

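The endoplasmic reticulum (ER) is where secreted and membrane proteins are folded, and 34 mouse genes of its chaperones and of the unfolded protein response were followed here in macrophages with or without Jaml, the gene of junctional adhesion molecule-like protein. The genes were taken by symbol from a table of 56980 genes, and all 34 passed the filter on low counts. They comprise 15 ER folding genes (2 lectin chaperones, 9 lumenal chaperones and co-chaperones, 4 protein disulphide isomerases), 6 genes of ER-associated degradation, 4 genes of the stress sensors and XBP1, 7 genes of the ATF4-CHOP branch and 2 genes of the translocon. The groups were 5 libraries of macrophages from wild-type mice (WT) and 5 from mice whose macrophages lack Jaml (KO, which the genotype tag calls a knockdown). All 10 cultures were primed for 8 h with LPS, the bacterial ligand of TLR4 (100 ng/ml), before 30 min of ATP (5 mM), and unstimulated cells were not analysed here. The labels name no Cre line, strain, sex or age, and do not say whether the libraries came from separate mice, so the spread behind each p-value is that among these libraries and could be technical. The KO libraries are the 5 table columns headed SI, which no label spells out; they were taken as KO because the series holds no other group, and every direction below rests on that.

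When unfolded protein builds up in the ER, the chaperone BiP leaves the sensors IRE1, PERK and ATF6. IRE1 splices the Xbp1 mRNA, ATF6 is cut to a transcription factor, and together these raise chaperones and degradation genes. PERK phosphorylates eIF2 alpha, which slows translation while the Atf4 mRNA is translated more, and ATF4 then raises CHOP (Ddit3) and amino acid and redox genes. The same ATF4 branch can be switched on by eIF2 alpha kinases outside the ER. In macrophages, signals from Toll-like receptors are known to engage IRE1 and XBP1 and to hold back the ATF4-CHOP branch. Gene counts give RNA levels and show neither the splicing of Xbp1 nor any protein.

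Libraries held 19319512 to 22766319 counts. The Jaml count was 2 in each of WT 1 and KO 4 and 0 elsewhere, under a floor of 3 counts per library, so its RNA was not detectable in either group and cannot check the labels. All 8 macrophage markers were found, with a summed level of 24028 to 25584 CPM (counts scaled to a library of fixed size and corrected for composition) in WT and 23046 to 25034 CPM in KO. KO 1 and KO 3 lay apart from the other KO libraries on the first and second principal components. On the first (39.1% of the variance) they were at 12.6 and 5.80. WT lay at -29.3 to -20.9 there and the other KO libraries at 29.1 to 40.8. For all members, folding genes, the ATF4-CHOP branch and other folding enzymes, counts are also given without KO 1 and KO 3. Of 14436 genes tested with edgeR's quasi-likelihood test, 4200 (29.1%) differed at an adjusted p under 0.05, 2036 higher (14.1%) and 2164 lower (15.0%) in KO. Scaling by library totals instead of by composition (TMM) shifted the median log2 fold change over the tested genes from 0.01 to 0.12. Of the 14436 genes, 4221 were then called higher and 1363 lower, the background for all counts below with library totals.

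Some promoters of these genes carry short elements through which the response acts, and matches to such elements are listed here by sequence. RefSeq promoters (GRCm38.p6, 250 bases before to 50 after the start) were found for 30 of the 34 members. On both strands, 4 motifs were searched. ERSE, the ER stress response element, is CCAAT and CCACG with 9 bases between, ERSE-II is ATTGG and CCACG with 1 base between, UPRE is TGACGTGG, and CARE, a core of the elements that C/EBP and ATF4 bind, is TGATGNAA. No matches in a member's promoter overlapped. ERSE stood in 8 of 30 members (26.7%) and in 37 of all 27025 genes with a promoter (0.137%). ERSE was first described in promoters of ER chaperone genes, Hspa5 and Hsp90b1 among them, so the share is not independent of how such lists come about, and it is no result of the experiment. ERSE-II stood in Herpud1 and Dnajb11 (6.67%, against 0.0444% of all genes), CARE in Asns, Chac1, Trib3 and Herpud1 (13.3%, against 4.51%), and UPRE in no member (0.714% of all genes). These shares, too, may depend on how such lists come about and are no result of the experiment. The 220 bases before the start are given 5′ to 3′ on the strand of the gene, with each match in capitals, for 5 ERSE genes of folding, for 2 degradation genes and for 2 genes of the ATF4-CHOP branch.
Calr (chr8:84846932-84847151, minus strand): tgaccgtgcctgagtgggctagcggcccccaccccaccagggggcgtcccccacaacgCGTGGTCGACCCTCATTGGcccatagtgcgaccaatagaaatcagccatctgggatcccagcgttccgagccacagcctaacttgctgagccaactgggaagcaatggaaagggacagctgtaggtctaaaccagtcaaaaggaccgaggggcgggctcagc
Hsp90b1 (chr10:86705445-86705664, minus strand): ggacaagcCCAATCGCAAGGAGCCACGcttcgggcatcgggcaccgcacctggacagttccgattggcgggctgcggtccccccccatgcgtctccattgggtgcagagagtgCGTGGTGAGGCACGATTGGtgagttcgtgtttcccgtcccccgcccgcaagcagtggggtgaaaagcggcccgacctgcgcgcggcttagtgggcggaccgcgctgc
Pdia6 (chr12:17266369-17266588, plus strand): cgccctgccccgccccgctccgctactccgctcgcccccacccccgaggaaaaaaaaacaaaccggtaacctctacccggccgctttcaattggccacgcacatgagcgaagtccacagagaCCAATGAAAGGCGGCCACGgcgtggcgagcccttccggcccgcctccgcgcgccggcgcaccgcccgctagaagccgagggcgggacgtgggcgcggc
Dnajc3 (chr14:118937712-118937931, plus strand): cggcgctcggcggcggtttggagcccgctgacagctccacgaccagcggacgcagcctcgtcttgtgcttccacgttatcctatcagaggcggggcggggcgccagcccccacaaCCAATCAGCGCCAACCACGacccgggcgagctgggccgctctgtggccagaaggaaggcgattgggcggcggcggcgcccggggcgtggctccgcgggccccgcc
Hspa5 (chr2:34771870-34772089, plus strand): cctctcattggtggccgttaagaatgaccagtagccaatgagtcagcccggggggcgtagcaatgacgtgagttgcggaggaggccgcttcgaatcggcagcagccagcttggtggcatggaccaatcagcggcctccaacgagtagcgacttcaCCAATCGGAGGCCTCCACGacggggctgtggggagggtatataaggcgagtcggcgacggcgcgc
Herpud1 (chr8:94386209-94386428, plus strand): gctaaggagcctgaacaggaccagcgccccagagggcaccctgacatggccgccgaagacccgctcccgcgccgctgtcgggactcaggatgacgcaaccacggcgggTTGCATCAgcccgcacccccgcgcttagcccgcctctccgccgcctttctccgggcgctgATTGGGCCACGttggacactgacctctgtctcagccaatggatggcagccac
Syvn1 (chr19:6046356-6046575, plus strand): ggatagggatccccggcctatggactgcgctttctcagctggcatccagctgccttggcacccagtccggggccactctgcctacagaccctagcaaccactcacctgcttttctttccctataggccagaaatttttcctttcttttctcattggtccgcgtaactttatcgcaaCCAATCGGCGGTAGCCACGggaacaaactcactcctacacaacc
Chac1 (chr2:119351022-119351241, plus strand): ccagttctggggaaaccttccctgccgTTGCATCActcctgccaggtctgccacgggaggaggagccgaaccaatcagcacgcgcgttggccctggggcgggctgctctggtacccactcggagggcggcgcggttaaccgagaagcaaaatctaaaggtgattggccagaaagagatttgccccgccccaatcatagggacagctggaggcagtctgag
Asns (chr6:7693210-7693429, minus strand): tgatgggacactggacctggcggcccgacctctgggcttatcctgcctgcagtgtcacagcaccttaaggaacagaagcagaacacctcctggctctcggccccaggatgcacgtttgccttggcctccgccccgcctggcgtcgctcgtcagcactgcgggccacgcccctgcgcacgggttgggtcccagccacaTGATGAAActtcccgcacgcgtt
The ERSE of Hspa5 ran from 65 to 47 bases before the start and that of Calr, on the reverse strand, from 162 to 144. Hsp90b1 had 2, one on each strand. Herpud1 held an ERSE-II and a CARE. Of the 8 members with ERSE, Calr, Canx, Hsp90b1, Dnajc3 and Pdia6 were higher in KO, Syvn1 was lower, and Hspa5 and Creld2 did not pass the test. Among folding genes with a promoter but no ERSE, Pdia3, Pdia4, P4hb, Sdf2l1 and Dnajb9 were higher too, and Dnajb11 did not pass. Of the 4 members with CARE, Herpud1 was higher, Chac1 and Trib3 were lower and Asns did not pass. Over all genes tested 14.1% were higher and 15.0% lower. A match is a stretch of letters and was not tested for binding or activity.

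KO macrophages had more RNA of most ER folding genes. In the ATF4-CHOP branch 4 of 7 genes were lower in KO, but only Sesn2 kept that call in all 19 alternative fits. Of the 34 members, 17 were higher and 6 lower in KO at an adjusted p under 0.05 (edgeR), which is 50% and 17.6% against the 14.1% and 15.0% of all genes given above. The median log2 fold change over the members was 0.12, against 0.01 over all genes tested. With library totals 22 members were higher and 3 lower, and without KO 1 and KO 3 the counts were 16 and 6. Over all genes tested, library totals gave 4221 higher and 1363 lower of 14436. Leaving out KO 1 and KO 3 gave 1898 higher and 2256 lower of 14692. Of the 15 folding genes alone 12 were higher, with 14 under library totals and 11 without KO 1 and KO 3, and none was lower in any of these fits. Changes were small. Among the 17 that rose the fold ran from 1.08 to 1.35, and among the 6 that fell from 1.20 to 1.60. KO values lay wholly above WT for 16 members and wholly below for 3, where 10.9% and 12.4% of all genes tested did so. Per kilobase of the gene length recovered from the authors' FPKM, WT levels ran from 178 CPM per kilobase for Calr to 3.08 for Eif2ak3.

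**Figure D1:**
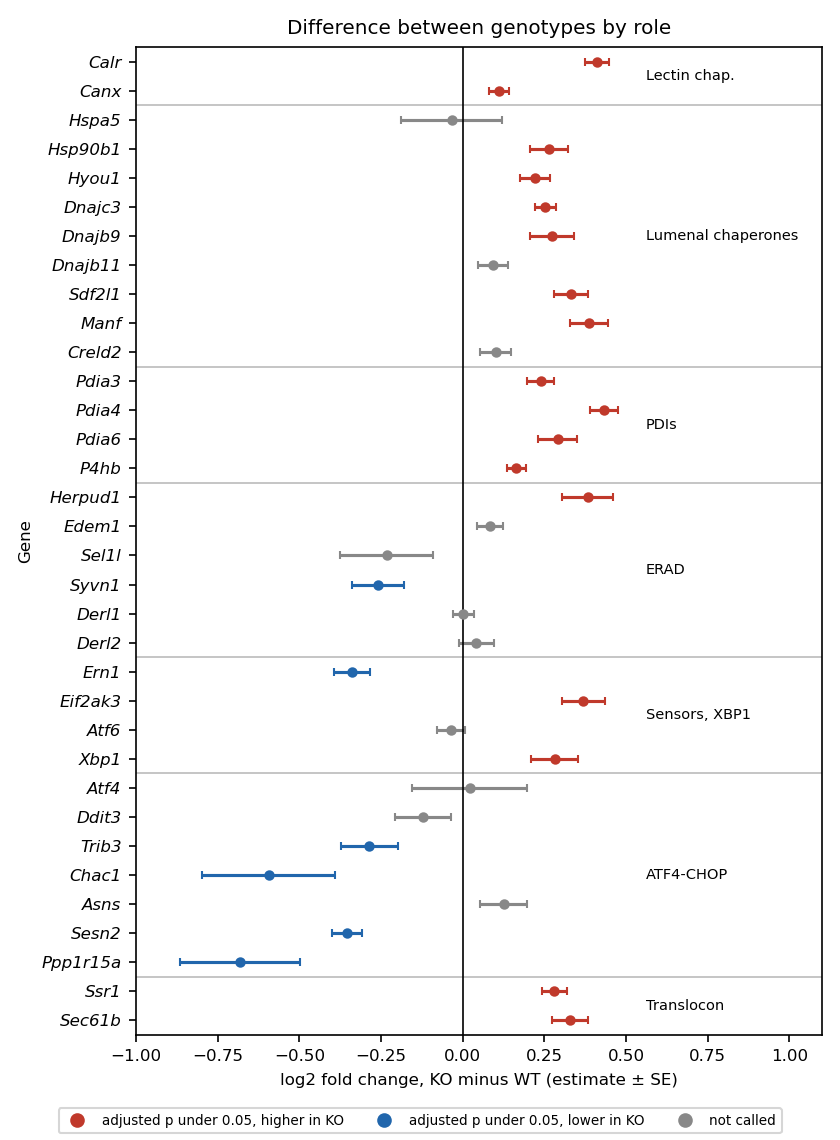
Log2 fold change, KO minus WT (x axis, estimate ± SE from edgeR, 5 libraries per group), for each of the 34 members (y axis), ordered by role. Red points were higher and blue points lower at an adjusted p under 0.05, and grey points did not pass: 12 of the 15 folding genes are red, and 4 of the 7 ATF4-CHOP genes are blue.

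The lectin chaperones calreticulin and calnexin hold glycoproteins in the ER until they fold. Calr (ENSMUSG00000003814) had the highest level of all members per kilobase. Its level was 778, 722, 753, 741 and 789 CPM in WT 1 to 5 and 1029, 969, 974, 1014 and 1045 CPM in KO 1 to 5. The lowest KO library thus stood well above the highest WT library. The mean rose from 756 ± 27.5 to 1006 ± 33.6 CPM (SD, n = 5 each), 1.33-fold, with an edgeR adjusted p of 5.43e-06. Canx, the membrane-bound relative, rose by a smaller amount, from 496 ± 6.43 to 536 ± 17.1 CPM (1.08-fold, edgeR adjusted p = 0.0177), again without overlap.

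Protein disulphide isomerases form and reshuffle the disulphide bonds of new proteins. All 4 rose without overlap between the groups, where KO lay wholly above WT in 10.9% of all genes tested. Pdia4 (ENSMUSG00000025823) had 84.9, 91.7, 84.3, 83.5 and 87.8 CPM in WT 1 to 5 and 119, 112, 124, 111 and 116 CPM in KO 1 to 5. The lowest KO library, KO 4, lay well above the highest WT library, WT 2. Its log2 fold change of 0.43 ± 0.04 (estimate ± SE, as for the log2 values below) was the largest increase among the members, with an edgeR adjusted p of 1.51e-05. Pdia6, which also tempers the sensors, rose by 0.29 ± 0.06 on the log2 scale. Pdia3, the partner of calreticulin and calnexin, rose by 0.24 ± 0.04. P4hb, the founding isomerase and the member with the second highest level per kilobase, rose by 0.16 ± 0.03. The 5 KO libraries held 682 to 714 CPM of P4hb and the WT libraries 608 to 639 CPM.

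Among the 9 lumenal chaperones and co-chaperones 6 rose (66.7%, against 14.1% of all genes tested) and 3 did not pass. Hspa5 (ENSMUSG00000026864), which encodes BiP itself, was among the 3. It had 511, 526, 523, 514 and 445 CPM in WT 1 to 5 and 593, 361, 629, 527 and 350 CPM in KO 1 to 5. KO 2 and KO 5 lay below every WT library, KO 1 and KO 3 lay above every WT library, and KO 4 just above. The means were 504 ± 33.2 and 492 ± 130 CPM, and the log2 fold change was -0.03 ± 0.15 (edgeR adjusted p = 0.901), so with this spread a change in either direction could be missed. Without KO 1 and KO 3 the log2 fold change was -0.29 and did not pass (edgeR adjusted p = 0.12). With library totals, without KO 2 and without KO 5 it was 0.09, 0.06 and 0.07, also not called.

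Hsp90b1, the ER form of HSP90, had 413, 410, 387, 430 and 437 CPM in WT 1 to 5 and 564, 477, 516, 455 and 481 CPM in KO 1 to 5. KO 1 was the highest library and KO 4 the lowest of its group, still above WT. The gene rose by 0.26 ± 0.06 on the log2 scale (edgeR adjusted p = 0.00472). Manf, a secreted ER stress protein that binds BiP, had 56.5, 52.1, 54.7, 51.9 and 51.7 CPM in WT 1 to 5 and 75.1, 66.1, 76.9, 64.7 and 65.7 CPM in KO 1 to 5. KO 1 and KO 3 were again the 2 highest KO libraries, and no KO library reached down to WT. Manf rose by 0.39 ± 0.06 (edgeR adjusted p = 0.000362).

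Of the other 6 lumenal members 4 rose, and 2 did not pass. Sdf2l1, which keeps BiP substrates soluble, rose by 0.33 ± 0.05 on the log2 scale. Dnajb9, a J protein that turns BiP onto IRE1, rose by 0.27 ± 0.07, from 29.6 ± 2.85 to 35.8 ± 1.94 CPM, and its edgeR adjusted p went from 0.0103 to 0.0507 without KO 1 and KO 3. Dnajc3, a J protein also known as an inhibitor of PERK, showed the least spread of these, with 83.3 to 87.5 CPM in WT and 98.1 to 104 CPM in KO and a log2 fold change of 0.25 ± 0.03. Hyou1, the nucleotide exchange factor of BiP, rose by 0.22 ± 0.05. Dnajb11, a further J protein, and Creld2, a small ER stress protein, had log2 fold changes of 0.09 ± 0.05 and 0.10 ± 0.05 with overlapping groups and did not pass (edgeR adjusted p = 0.167 and 0.144), but passed with library totals (0.00547 and 0.00712), and Dnajb11 also without WT 1 (0.0332).

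**Figure D2:**
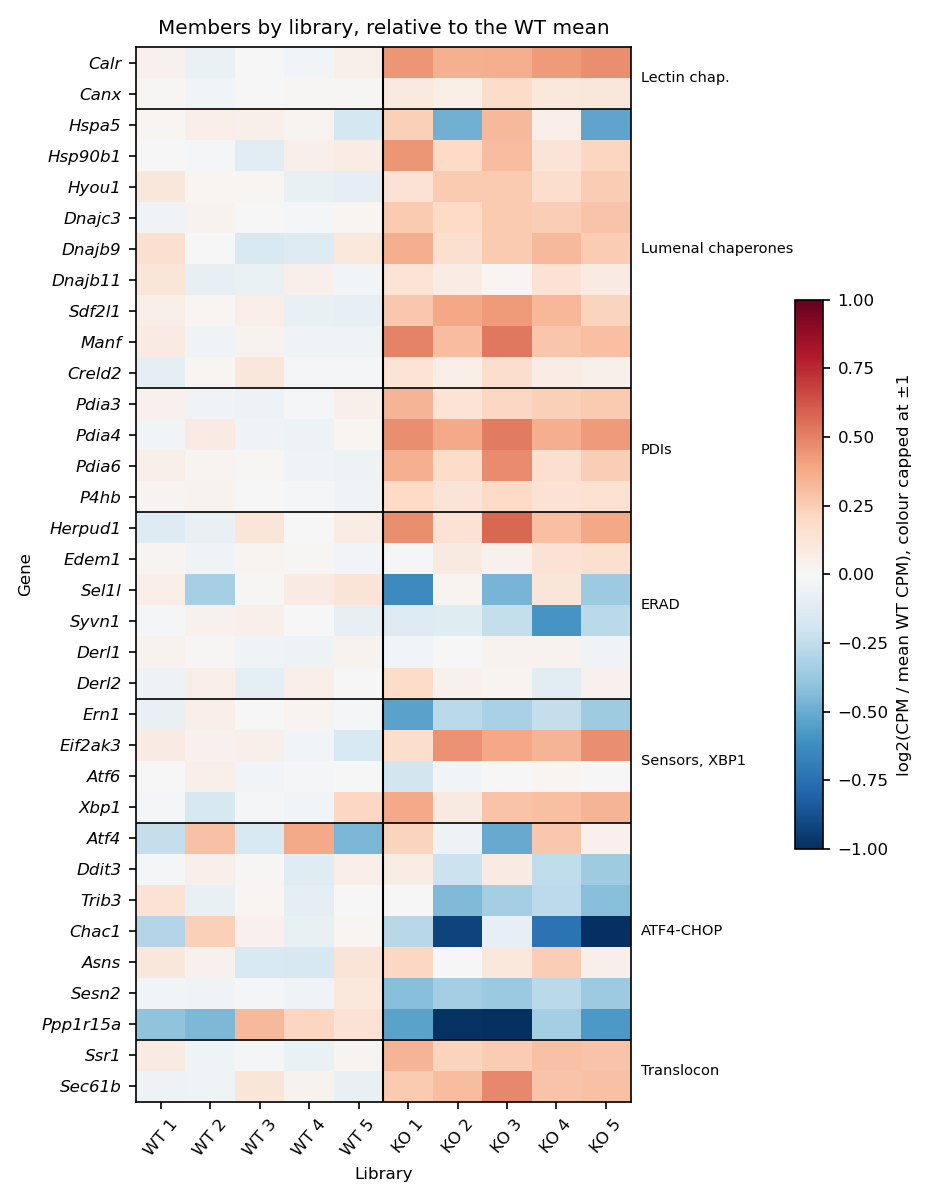
Log2 of each library's CPM over the mean WT CPM (colour, capped at ±1) for the 34 members (rows, by role) in the 10 libraries (columns). Rows of folding genes are red across all 5 KO libraries, apart from Hspa5, which is blue in KO 2 and KO 5; Chac1 and Ppp1r15a are the rows that go furthest below WT.

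The 2 genes of protein entry into the ER rose, where 14.1% of all genes tested did. Sec61b, a small subunit of the SEC61 channel, had 27.3 to 31.2 CPM in WT and 34.5 to 40.0 CPM in KO, and a log2 fold change of 0.33 ± 0.06 (edgeR adjusted p = 0.000859). Ssr1, a subunit of the translocon-associated protein complex, rose by 0.28 ± 0.04, from 134 ± 5.66 to 163 ± 4.86 CPM (SD, n = 5 each). Neither gene's groups overlapped.

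Genes of ER-associated degradation, which pulls misfolded proteins back to the cytosol for the proteasome, gave mixed values: 1 of 6 rose, 1 fell and 4 did not pass. The share called, 33.3%, is near the 29.1% of all genes tested. Herpud1, a membrane scaffold of the degradation complex, had 27.4, 28.5, 32.5, 30.0 and 31.5 CPM in WT 1 to 5 and 41.5, 33.2, 44.6, 36.9 and 39.3 CPM in KO 1 to 5. The lowest KO value, in KO 2, lay just above the highest WT value, in WT 3. Herpud1 rose by 0.38 ± 0.08 on the log2 scale (edgeR adjusted p = 0.00341). Syvn1, the ubiquitin ligase HRD1 at the core of the complex, moved the other way, with 59.3 to 65.1 CPM in WT and 41.7 to 57.9 CPM in KO.

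Syvn1 had a log2 fold change of -0.26 ± 0.08 (edgeR adjusted p = 0.0275). That call was lost with library totals (adjusted p = 0.2), without a low-count filter (0.0944), and without WT 1, WT 2, WT 3, WT 4 or KO 5 (0.0553 to 0.0774). Sel1l, the partner that holds HRD1 in place, had 218, 166, 210, 220 and 227 CPM in WT 1 to 5 and 134, 212, 151, 227 and 162 CPM in KO 1 to 5. KO 2 and KO 4 stood within the WT range and the other 3 KO libraries below it, and the gene did not pass (log2 fold change -0.23 ± 0.14, and -0.06 without KO 1 and KO 3). Derl1 and Derl2, membrane rhomboid-like proteins of the exit route, had log2 fold changes of 0.00 ± 0.03 and 0.04 ± 0.05. Edem1, which hands mannose-trimmed proteins to the route, had 0.08 ± 0.04 and passed with library totals (edgeR adjusted p = 0.000627), without KO 1 (0.038) and without KO 1 and KO 3 (0.0183). Derl1 passed with library totals (0.0196).

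Of the 3 sensor genes 1 fell, 1 rose and 1 did not pass, where 29.1% of all genes tested were called. Ern1 (ENSMUSG00000020715), which encodes IRE1, had 110, 121, 115, 118 and 114 CPM in WT 1 to 5 and 79.8, 96.0, 92.7, 98.3 and 90.4 CPM in KO 1 to 5. KO 1 was the lowest library and no KO library reached the WT range. Ern1 went from 116 ± 4.13 to 91.4 ± 7.19 CPM, 1.27-fold lower (edgeR adjusted p = 0.000655). Eif2ak3 (ENSMUSG00000031668), which encodes PERK, had 25.9, 25.2, 25.3, 24.0 and 22.0 CPM in WT 1 to 5 and 27.7, 33.7, 32.0, 31.0 and 33.7 CPM in KO 1 to 5. KO 1 was again the lowest KO library, here the one nearest to WT. Eif2ak3 rose 1.29-fold without overlap between the groups (edgeR adjusted p = 0.00123). Atf6 had a log2 fold change of -0.04 ± 0.04 and did not pass (edgeR adjusted p = 0.588); with library totals it was 0.08, also not called.

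Xbp1, the transcription factor gene whose mRNA IRE1 splices, had 43.7, 39.5, 43.6, 43.4 and 51.0 CPM in WT 1 to 5 and 57.5, 47.1, 53.9, 54.6 and 55.9 CPM in KO 1 to 5. KO 2 lay below WT 5, and the other KO libraries lay above all of WT. Xbp1 rose by 0.28 ± 0.07 on the log2 scale (edgeR adjusted p = 0.0112), and the adjusted p was 0.0584 without KO 1 and KO 3. The total Xbp1 RNA was thus higher in KO where the RNA of its splicing enzyme was lower.

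**Figure D3:**
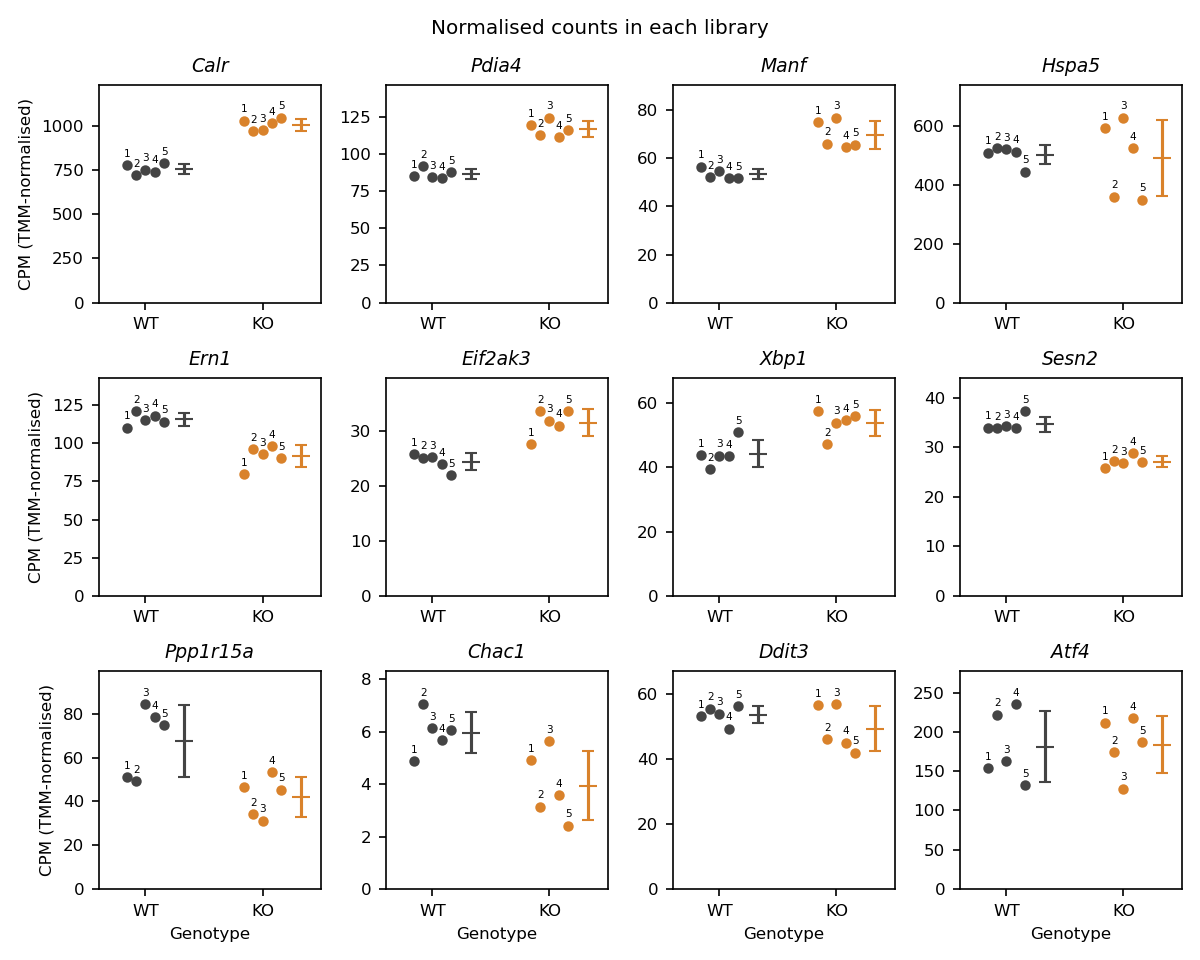
CPM (y axis, from 0) of 12 members in each library, WT in grey and KO in orange, with library numbers beside the points and the mean ± SD (n = 5) at the right of each group. Calr, Pdia4, Manf, Ern1, Eif2ak3 and Sesn2 do not overlap between groups, while Hspa5, Atf4 and Ddit3 do.

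Of the 7 genes in the ATF4-CHOP branch, 4 fell in KO (57.1%, against 15.0% of all genes tested) and 3 did not pass. The median log2 fold change was -0.29. With library totals 2 were lower and Asns was higher (edgeR adjusted p = 0.0256). Without KO 1 and KO 3 again 4 were lower, with Ddit3 called in place of Ppp1r15a. Sesn2 (ENSMUSG00000028893), a stress-induced leucine sensor that restrains mTORC1, was the only one of them whose groups did not overlap. It had 33.9 to 34.2 CPM in WT 1 to 4, 37.4 CPM in WT 5, and 25.9, 27.2, 26.8, 28.8 and 27.0 CPM in KO 1 to 5. Sesn2 was 1.28-fold lower (edgeR adjusted p = 0.000124), and WT 5 was the one library that stood away from its group.

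Ppp1r15a, also called GADD34, encodes the inducible subunit that dephosphorylates eIF2 alpha. It had 51.0, 49.4, 84.4, 78.4 and 74.7 CPM in WT 1 to 5 and 46.6, 34.1, 31.3, 53.4 and 45.4 CPM in KO 1 to 5. WT 1 and WT 2 lay well under the other WT libraries and under KO 4. The fold, 1.60-fold lower, was the largest among the members (edgeR adjusted p = 0.0155), and the adjusted p was 0.056 without KO 1 and KO 3. Chac1, a glutathione-degrading enzyme of the ATF4 and CHOP pathway, had 4.88, 7.05, 6.15, 5.68 and 6.06 CPM in WT 1 to 5 and 4.92, 3.15, 5.63, 3.58 and 2.42 CPM in KO 1 to 5. KO 1 and KO 3 reached into the WT range and the other 3 KO libraries lay below it.

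Chac1 was 1.51-fold lower with an edgeR adjusted p of 0.0476, which is close to the threshold. Without KO 1 and KO 3 its log2 fold change went from -0.59 to -0.97 (adjusted p = 0.0014). Leaving out 1 library ended the call in 8 of 10 cases, all except KO 1 and KO 3, at an adjusted p of up to 0.121. It also ended with library totals (0.104), without a low-count filter (0.113), with the stricter filter (0.0524) and with the replicate number as a block (0.07). Trib3, a pseudokinase induced by CHOP, had 11.9 to 14.1 CPM in WT and 9.35 to 12.7 CPM in KO and a log2 fold change of -0.29 ± 0.09 (edgeR adjusted p = 0.0304). Trib3 lost its call with library totals (adjusted p = 0.19), without a low-count filter (0.0974) and in 8 of the 10 fits that left out 1 library, all but those of WT 4 and KO 1 (up to 0.0927).

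The transcription factors of the branch did not pass. Atf4 had 154, 222, 163, 235 and 132 CPM in WT 1 to 5 and 212, 175, 128, 218 and 187 CPM in KO 1 to 5. Both groups spread widely and shared nearly the same range, with a log2 fold change of 0.02 ± 0.18 whose sign turned in 5 of the 10 fits that each left out 1 library. Ddit3, which encodes CHOP, had 53.0, 55.4, 53.9, 49.3 and 56.2 CPM in WT 1 to 5 and 56.4, 46.1, 56.8, 45.0 and 41.9 CPM in KO 1 to 5. KO 1 and KO 3 were level with WT, and KO 2, KO 4 and KO 5 lay below it. Its log2 fold change was -0.12 ± 0.09 (edgeR adjusted p = 0.333), and without KO 1 and KO 3 Ddit3 was called lower (adjusted p = 0.00506). A second Ddit3 identifier held 1 count in each of the 10 libraries and was not used. Asns, the asparagine synthetase gene, had a log2 fold change of 0.13 ± 0.07 and did not pass (edgeR adjusted p = 0.231).

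KO 1 and KO 3, which stood apart over all genes, also did so in several members. In 10 of 34 members (29.4%) both lay above the other 3 KO libraries, namely Hspa5, Hsp90b1, Manf, Creld2, Pdia4, Pdia6, P4hb, Herpud1, Ddit3 and Chac1, and 12.8% of all genes tested showed this. In Edem1, Sel1l and Sesn2 both lay below (8.82%, against 18.3%). The median over the 15 folding genes of the log2 ratio to the WT mean was 0.27, 0.18, 0.27, 0.18 and 0.25 in KO 1 to 5, so it was positive in each KO library. Over the 7 ATF4-CHOP genes it was -0.01, -0.35, -0.34, -0.26 and -0.36, with KO 1 close to WT.

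Other genes of ER folding, outside the members, were often higher too. Of 30 tested, 17 rose and none fell in KO, with a median log2 fold change of 0.17; 14.1% of all genes tested rose. Txndc11 and Txndc5, thioredoxin-like oxidoreductases, rose by 0.40 ± 0.05 and 0.30 ± 0.04 on the log2 scale. Erp29, a chaperone of secretory proteins, rose by 0.56 ± 0.09, and Ppib, the ER cyclophilin, by 0.26 ± 0.04. With library totals 22 rose and none fell, and without KO 1 and KO 3, 17 rose and 2 fell.

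Of 29 other genes of the translocon, the signal peptidase and the oligosaccharyltransferase, 12 were higher (41.4%) and 1 lower (3.45%). Over all genes tested these shares were 14.1% and 15.0%. The median log2 fold change of the list was 0.13. Rpn1, a subunit of the oligosaccharyltransferase, had 161 to 171 CPM in WT and 210 to 217 CPM in KO and rose by 0.35 ± 0.03. Its catalytic relative Stt3b rose by 0.21 ± 0.03, the signal peptidase subunit gene Spcs3 by 0.23 ± 0.04 and Ssr2 by 0.27 ± 0.05. Of 26 other degradation genes, 2 were higher and 3 lower, 19.2% called against 29.1% of all genes, with a median of -0.02. With library totals 9 were higher and none lower, where 4221 of all 14436 genes were higher and 1363 lower. Edem2, a mannosidase-like gene, rose by 0.13 ± 0.04. Nploc4 and Aup1, which help extract and ubiquitinate substrates, and Herpud2 fell by 0.20 ± 0.04, 0.17 ± 0.03 and 0.10 ± 0.03 on the log2 scale. With library totals Herpud2 turned to 0.01, and Nploc4 and Aup1 kept their sign without a call (edgeR adjusted p = 0.0789 and 0.288).

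Of 18 other transducers and Golgi partners, 5 rose (27.8%) and 4 fell (22.2%), against 14.1% and 15.0% of all genes. With library totals 7 rose and none fell, and of all 14436 genes 4221 rose and 1363 fell. Creb3l1 and Creb3l2, membrane-bound transcription factors cut in the Golgi like ATF6, rose most. Creb3l1 had 18.9 to 23.7 CPM in WT and 39.8 to 47.2 CPM in KO, 1.97-fold higher (edgeR adjusted p = 2.46e-06), and Creb3l2 was 1.47-fold higher. Kdelr2, a receptor that returns ER chaperones from the Golgi, rose by 0.31 ± 0.06. Tmbim6, which encodes the ER protein BAX inhibitor 1, fell by 0.21 ± 0.04 on the log2 scale and was not called with library totals (adjusted p = 0.124). Of 9 reported substrates of IRE1-dependent RNA decay, 33.3% were called, close to the 29.1% of all genes tested. Hgsnat and Pmp22 rose, by 0.17 ± 0.05 and 0.40 ± 0.12, and 1 fell, the collagen gene Col6a1, from 13.3 ± 0.471 to 4.95 ± 3.05 CPM. Pmp22 was not called without KO 5 (adjusted p = 0.052).

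Of 27 other ATF4 targets tested, 3 rose (11.1%, against 14.1% of all genes) and 7 fell (25.9%, against 15.0%), with a median of -0.12. With library totals 6 rose and 4 fell, at a median of 0.01, against 0.12 over all genes tested. Mthfd2, a mitochondrial folate enzyme, fell by 0.37 ± 0.04 on the log2 scale and the arginine transporter gene Slc7a1 by 0.38 ± 0.06. Phgdh, the first enzyme of serine synthesis, rose by 0.50 ± 0.06 and the glutamine transporter gene Slc1a5 by 0.29 ± 0.04. The fold was largest for Gdf15, a stress cytokine named after its values were seen, with 252, 226, 100, 95.6 and 90.1 CPM in WT 1 to 5 and 70.6, 27.8, 25.0, 31.1 and 25.7 CPM in KO 1 to 5. WT 1 and WT 2 stood far above the other WT libraries, in contrast to Ppp1r15a, where they were the lowest.

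Of 20 cytosolic aminoacyl-tRNA synthetase genes, 1 rose and 5 fell, a share of 30.0% called, close to the 29.1% of all genes. With library totals 8 rose and 2 fell, and of all 14436 genes 4221 rose and 1363 fell. Cars, Kars, Wars and Aars fell by 0.36 ± 0.04, 0.34 ± 0.04, 0.26 ± 0.06 and 0.15 ± 0.04 on the log2 scale, and Wars and Aars were not called with library totals (edgeR adjusted p = 0.0544 and 0.449). Of 12 genes of the eIF2 alpha kinases, eIF2B and the phosphatase, 1 rose and 2 fell, 25.0% called, also near that share. Eif2ak2, which encodes the interferon-inducible kinase PKR, had 147 to 161 CPM in WT and 90.1 to 116 CPM in KO, 1.49-fold lower (edgeR adjusted p = 9.89e-05). Ppp1r15b, the constitutive partner of Ppp1r15a, fell by 0.26 ± 0.03, and Eif2b3 rose by 0.28 ± 0.08. Eif2ak4 and Eif2ak1, the other 2 kinases, did not pass.

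**Figure D4:**
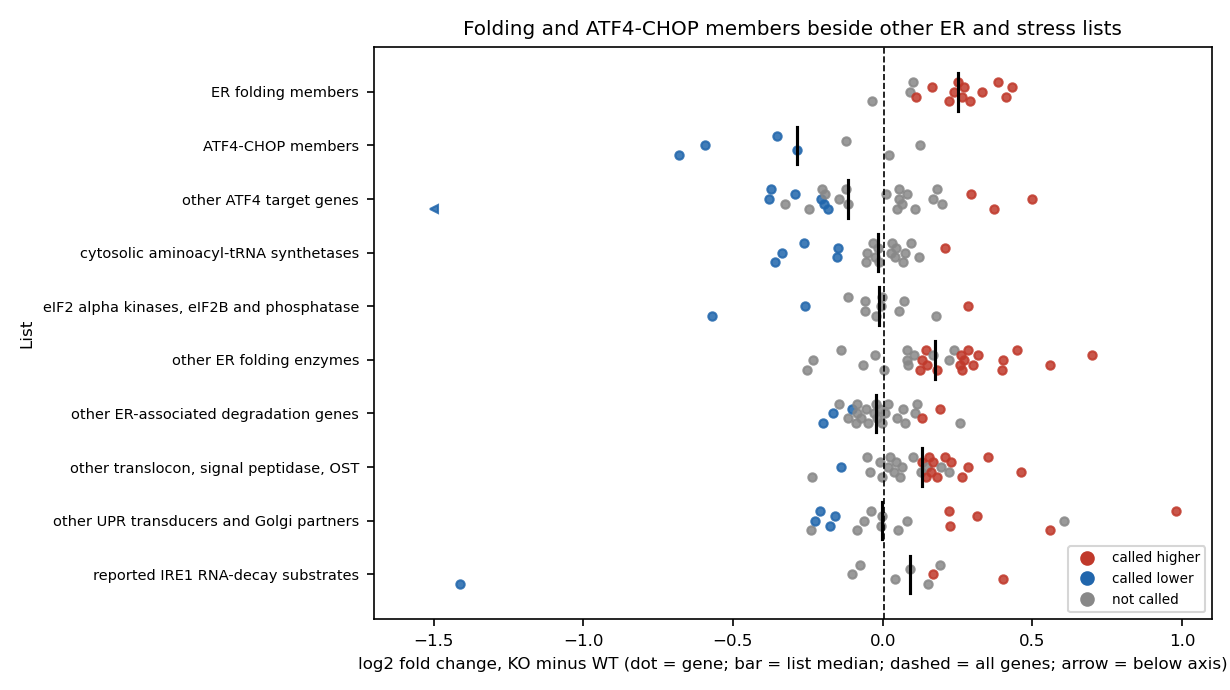
Log2 fold change, KO minus WT (x axis), of single genes (dots) in the folding and ATF4-CHOP members and in 8 other lists (y axis); black bars are list medians and the dashed line is the median of all genes tested, 0.01. Red and blue dots were called higher or lower by edgeR, and the arrow is Gdf15, at -2.08: the lists of folding enzymes and of the translocon lie to the right, at medians of 0.17 and 0.13.

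Markers of other cells were read beside these results, since cell types differ in their content of ER. In these bulk libraries fewer cells of a type and less RNA per cell cannot be told apart. Of 7 fibroblast and mesothelial markers, 3 rose (42.9%), 2 fell (28.6%) and 2 did not pass, where 14.1% and 15.0% of all genes tested rose and fell. None was at 0, and their summed level was 546 to 606 CPM in WT and 584 to 747 CPM in KO. The collagen genes Col1a1 and Col1a2 rose from 245 ± 12.6 to 318 ± 22.1 CPM and from 205 ± 12.1 to 255 ± 22.2 CPM, folds of 1.30 and 1.24 like those of the chaperones, and Dcn rose 1.15-fold. Col3a1 and Msln had 88.3 ± 6.30 and 70.9 ± 16.1 CPM, and 7.15 ± 2.01 and 4.44 ± 5.32 CPM, in WT and KO, and did not pass. The mesothelial markers Upk3b and Lrrn4 fell, from 1.41 ± 0.216 to 0.211 ± 0.0923 CPM and from 0.976 ± 0.274 to 0.170 ± 0.0602 CPM. The part of these cells in the folding genes was not tested.

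RNA of markers of B cells and of plasma cells, which are rich in ER, was scarce. Cd79a, Ms4a1 and Mzb1 had at most 3 counts in any library, and Jchain and Ighm had more in some library. The 5 B and plasma cell markers summed to 1.34 to 2.99 CPM in WT and 0.441 to 0.939 CPM in KO. Only 1 of them passed the filter, and it was called lower in KO, at a log2 fold change of -1.90 without overlap. Of the 6 T and NK cell markers none was tested, Cd3e and Ncr1 were at 0 in all libraries, and the sum reached 0.160 CPM in WT and 0.358 CPM in KO. The 6 mast cell markers summed to 7.47 to 13.5 CPM in WT and 4.27 to 5.43 CPM in KO, and none was at 0. Of the 4 mast cell markers tested, 3 were lower (75.0%, against 15.0% of all genes tested). The 6 neutrophil markers summed to 14.9 to 19.2 CPM in WT and 23.1 to 27.1 CPM in KO, while Ly6g and Mpo had at most 3 counts. Only 2 neutrophil markers were tested, and both were higher, as were 14.1% of all genes tested. Of 5 dendritic cell markers Xcr1, Cd209a and Siglech were at 0 throughout, and the sum was 0.588 to 1.87 CPM in WT and 0.805 to 1.15 CPM in KO. Of the 8 macrophage markers 2 rose (25.0%), 2 fell (25.0%) and 4 did not pass, against 14.1% and 15.0% of all genes tested. Fcgr1, an Fc receptor gene, went from 182 ± 10.7 to 59.0 ± 7.63 CPM (SD, n = 5 each), 3.08-fold lower, a larger change than that of any member. Mertk, a receptor for dying cells, was 1.26-fold lower, and the groups of both genes did not overlap. Csf1r and Cd14 rose 1.12-fold and 1.09-fold. The part of these marker changes in the results above was not tested.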

How the data were processed

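RNA-seq was done on 10 macrophage libraries, 5 per genotype. The authors deposited raw counts of each gene in every library, as named in the file headers, and FPKM, which here served only to recover gene lengths (5 KO FPKM columns were not used). CASAVA 1.8 and TopHat2 2.0.6 and the builds mm10 and GRCm39 are named in the submitters' processing notes without a role; no source used here names the counting tool, annotation or strandedness, so reads of overlapping, antisense and near-identical genes could be mixed.

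After filterByExpr at a minimum count of 10, 14436 genes with 99.9% of counts remained. They were scaled by TMM and tested, KO minus WT, by the quasi-likelihood method of edgeR 4.0.16 in R 4.3.3, and p-values were Benjamini-Hochberg adjusted across them. The SE is the estimate over the square root of F. The fit was run on simulated data, of which 1 draw is described here, and other draws tried by hand are not reported. In it the share of unchanged genes among those called was above the nominal level, within a loose binomial bound (99.9%). A floor of 3 counts is 0.132 to 0.155 CPM by library totals, without the TMM correction that the other CPM values carry, and covers counting error only. The biological coefficient of variation was 12.8%. Where a symbol stood on several identifiers, the one with most counts was used; 3 older symbols were matched through the reference tables.

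The members and lists were chosen with earlier results of these data known; 1 marker gene is not reported here. Named were all members, Jaml, and up to 4 called genes with the smallest adjusted p of each further list at a mean log2 CPM of at least 1. Alternatives were DESeq2 1.42.0 size factors or Wald test, library totals, other filters, robust edgeR, limma-voom (limma 3.58.1), a replicate block and leaving out each library; leaving out KO 1 and KO 3 together was added after the data were seen. Promoters are RefSeq's (GRCm38.p6); no position from the deposited table is given.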

Additional observations from a re-analysis of the deposited data

Results flagged for a closer look

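Among 64 named genes, each read in 2 groups of 5 libraries, 9 of 128 groups held 1 library far from the other 4 by Dixon's test; chance flags about 1 in 20 groups, here 6.4. Of the members, Hspa5 was at 445 CPM in WT 5 (511 to 526 in the other WT libraries), Sel1l at 166 CPM in WT 2 (210 to 227), Atf6 at 99.6 CPM in KO 1 (111 to 115 in the other KO libraries), Sesn2 at 37.4 CPM in WT 5 (33.9 to 34.2) and Sec61b at 40.0 CPM in KO 3 (34.5 to 35.6). Of the other genes, Slc1a5 was at 44.4 CPM in WT 1, Eif2b3 at 15.5 CPM in KO 3, Aup1 at 123 CPM in WT 1 and Spcs3 at 102 CPM in WT 3.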

How the results depend on the processing

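The count of members higher in KO was 17 and stayed between 16 and 22 over 19 alternatives, and 15 of the 17 kept their call in each; Dnajb9 and Xbp1 lost it without KO 1 and KO 3. The count of members lower in KO was 6 and fell to 3 with library totals and to 3 without a low-count filter, and ranged from 3 to 6 when each library was left out in turn (3 without WT 1, WT 2, WT 3 or KO 5); Ern1 and Sesn2 kept their call in all 19. The causes were not tested. No sign that turned was of a called value except that of Herpud2. With library totals the log2 fold change turned for Hspa5 (0.087), Atf6 (0.078) and Herpud2 (0.011). Leaving out each library in turn gave -0.14 to 0.067 for Hspa5, -0.0067 to 0.024 for Derl1 and -0.063 to 0.14 for Atf4. Without KO 1 and KO 3 it turned for Derl1 (-0.00085) and Derl2 (-0.0047). A replicate block, with KO numbers read from the column headers, left 17 members higher and 5 lower, and 1765 genes higher and 2015 lower in all. Deviations of libraries with the same number correlated at -0.11 to 0.18, and 2 of 5 WT libraries correlated best with their own number, so pairing was not assumed. Depth limits chiefly Chac1, at 48 to 132 counts per library.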
